A study of Sordaria macrospora with 16 samples.

Results

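In mycelium of *Sordaria macrospora*, a filamentous ascomycete, 602 regions carried peaks of histone H3 trimethylated at lysine 27 (H3K27me3) in both lists of Δasf1, in which the gene of the histone chaperone ASF1 is deleted, and in neither list of the wild type. They were 7.41% of the 8127 regions formed when overlapping peaks of the 4 H3K27me3 lists were merged, and are called Δasf1-only regions here. The regions were chosen by the presence or absence of peaks in these 4 lists, so every value from the H3K27me3 lists is a description and carries no test. The 4 lists of histone H3 from the same strains took no part in that choice, and the tests below are on them.

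Chromatin was immunoprecipitated with antibodies against H3K27me3 and against H3, in 2 biological replicates for each strain. Δasf1 mycelium had grown for 3 days and wild-type mycelium for 2 days, both at 27°C, and fixed chromatin of both was cut with micrococcal nuclease (230 U/ml, 105 min). Growth time thus changed together with the strain, and the 2 cannot be told apart. Part of a stretch of chromosome 2 is known to be duplicated in Δasf1, which therefore differs from the wild type there in copy number too. The 8 input libraries were not used here. Since the libraries came from whole mycelium, a mark on a share of the nuclei and a weaker mark on all of them cannot be told apart either.

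H3K27me3 is set by Polycomb repressive complex 2 and is the hallmark of facultative heterochromatin, in which genes are kept silent but can be activated again. In *Neurospora crassa*, a close relative, the mark lies in broad domains, many of them near chromosome ends. ASF1 binds dimers of H3 and H4 and hands them to other chaperones such as chromatin assembly factor 1 (CAF-1), which place them on new DNA.

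Each of the 8 lists holds broad peaks, that is, stretches where a peak caller found more reads than its background. A list gives for each peak a fold enrichment, which is a ratio to that background, and the −log10 of a q-value, where a larger number means a stronger call. The lists held 4401 to 6525 peaks, and their median fold enrichments were low, 1.28 to 1.43. The H3K27me3 lists were larger in Δasf1, with 6090 and 6167 peaks on 22.2% and 24.9% of the genome. Those of the wild type held 4856 and 4764 peaks on 17.7% and 18.3% of it. Lists of replicate 1 ended at a −log10 q of 2.02 or just above, and lists of replicate 2 at 1.00 to 1.03. The cutoff thus seems to have differed by replicate number, and alike in both strains, though no settings are given. The lists hold no read counts, so depth is unknown. They hold no value outside peaks either, and the absence of a peak means only that no call passed the cutoff there.

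The Δasf1-only regions together spanned 947 kb, or 2.40% of the 39.4 Mb genome. The reverse class, with peaks in both wild-type lists and neither Δasf1 list, had 155 regions and spanned 337 kb, and 1823 regions had a peak in all 4 lists. Of the 4083 regions with peaks in both Δasf1 lists, 14.7% were Δasf1-only. A further 1658 had a peak in both Δasf1 lists and in 1 wild-type list, which was replicate 1 for 1214 of them and replicate 2 for 444. The class thus sits beside a larger one that missed the rule by a peak in a single wild-type list.

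The number of regions followed the cutoff and the size of the lists. With 1 cutoff of −log10 q for all lists (2.0496), 299 regions were Δasf1-only and 201 wild-type-only, and with equal numbers of top peaks per list the counts were 331 and 311. In these settings, 213 and 325 of the 602 regions still overlapped a region of the class.

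Most Δasf1-only regions were narrow. Their median width was 1317.5 bp (277 to 9506 bp), with 42 regions under 500 bp and 8 of 5 kb or more. Wild-type-only regions had a median of 1456 bp (299 to 19535 bp) and regions in all 4 lists one of 3204 bp, while the median of all regions was 1455 bp. In 578 of the 602 regions a single peak of each Δasf1 list made up the region. The 2 Δasf1 peaks shared a median of 47.9% of the region's length (quartiles 24.2% and 78.1%). The rule itself made the peaks of the 2 lists meet, and their bounds often differed.

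Their peaks were also slightly weaker than the rest of their lists. In Δasf1 replicate 1, the 619 peaks in Δasf1-only regions had a median fold enrichment of 1.41 (1.29 to 1.82), against 1.44 for peaks in regions shared by all 4 lists and 1.43 for the whole list. In Δasf1 replicate 2, the 610 peaks had a median of 1.31 (1.18 to 1.70), against 1.33 for the shared regions and 1.32 for the whole list. Of these peaks, 38.3% in replicate 1 and 41.5% in replicate 2 lay above the median fold enrichment of their list. The median −log10 q was 3.37 in replicate 1, against 3.70 for the list, and 1.79 in replicate 2, against 1.91. Across the 602 regions, fold enrichments of the 2 Δasf1 lists had a Spearman rho of 0.281. This describes regions of the same 2 libraries and is no replicate test.

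**Figure D1:**
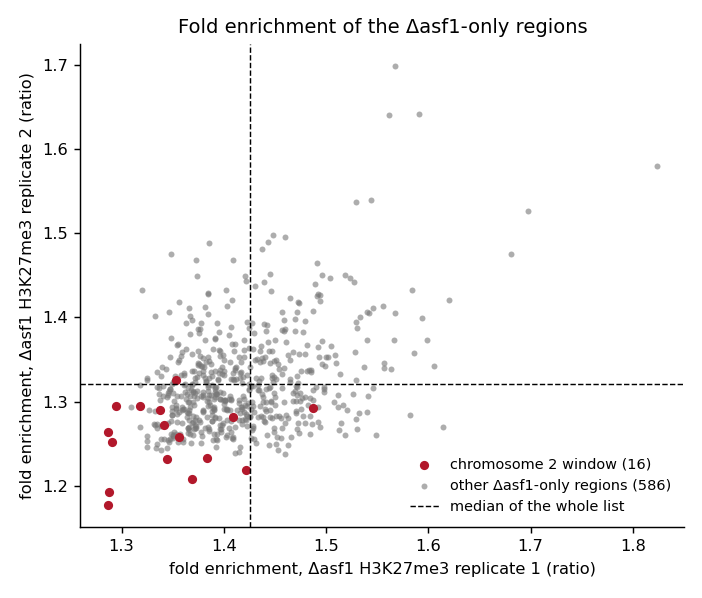
Highest fold enrichment (a ratio) of each Δasf1-only region in Δasf1 replicate 1 (x axis) and Δasf1 replicate 2 (y axis), with the regions at 0.7 to 1.3 Mb of chromosome 2 in red and the other 586 in grey. Dashed lines mark the medians of the whole lists, 1.43 and 1.32, and more than 50% of the regions lie below each of them.

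The limits of the rule were close to some regions on either side (positions are those of the lists, in the build they name Sm_v04_wtN). Just inside, the region in SMAC4_01575 (chr1:5452082-5452915) had Δasf1 peaks that shared 1 bp. The region in SMAC4_05877 (chr6:591859-593304) lay 1 bp from a peak of wild type replicate 2. Just outside, a region at chr6:1136344-1137489 was left out because of 241 bp of a peak in wild type replicate 2, which covered 21.0% of it. On chromosome 4, Δasf1 peaks at 4275295 to 4275679 in one list and 4275702 to 4276542 in the other missed each other by 22 bp.

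The distance to wild-type H3K27me3 was like that of other regions without a wild-type peak. From Δasf1-only regions, the nearest wild-type peak was a median of 1987 bp away, under 1 kb for 60 regions, 1 to 5 kb for 467 and 5 kb or more for 75. The median was 1954 bp for the 597 regions found in Δasf1 replicate 1 alone and 1980 bp for the 741 found in Δasf1 replicate 2 alone. Peaks of a single list were never closer than 932 bp. On the chromosome, 39.5% of Δasf1-only regions had a region shared by all 4 lists as a direct neighbour, as had 38.9% of all regions. Only 10 regions were 10 kb or more from any wild-type peak. The farthest, at chr2:1485153-1487245 over SMAC4_04461, SMAC4_13216 and SMAC4_04462, was 14013 bp away, with fold enrichments of 1.37 and 1.32 in the Δasf1 lists.

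Chromosome 1, the largest of the 7, held more Δasf1-only regions than its length would give. It carried 197 of them (32.7%) on 23.6% of the genome, which is 21.2 per Mb, against 13.4 per Mb on chromosomes 2 to 7. The other chromosomes held 10.4 (chromosome 5) to 15.6 (chromosome 3) per Mb. As a share of all regions on the chromosome, Δasf1-only regions made up 10.2% on chromosome 1 and 6.55% on chromosomes 2 to 7. No test was made, as regions of the same 4 libraries are no replicates.

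The H3K27me3 lists themselves differed on chromosome 1, and the wild-type lists did so more than the Δasf1 lists. Peaks covered 22.5% and 25.7% of it in the Δasf1 lists, close to 22.0% and 24.7% of chromosomes 2 to 7. In the wild-type lists they covered 15.0% and 12.0% of chromosome 1, below 18.5% and 20.2% of the other chromosomes. H3 peaks covered 25.01% and 15.0% of chromosome 1 in Δasf1, close to 24.1% and 14.7% of chromosomes 2 to 7. In the wild type they covered 20.3% and 31.7% of chromosome 1, close to 21.0% and 30.97% of the others. In the 1-Mb window with the most Δasf1-only regions, 7 to 8 Mb of chromosome 1, there were 36 among 208 regions (17.3%), and peaks covered 22.7% and 28.5% of it in the Δasf1 lists, against 13.3% and 7.48% in the wild-type lists.

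**Figure D2:**
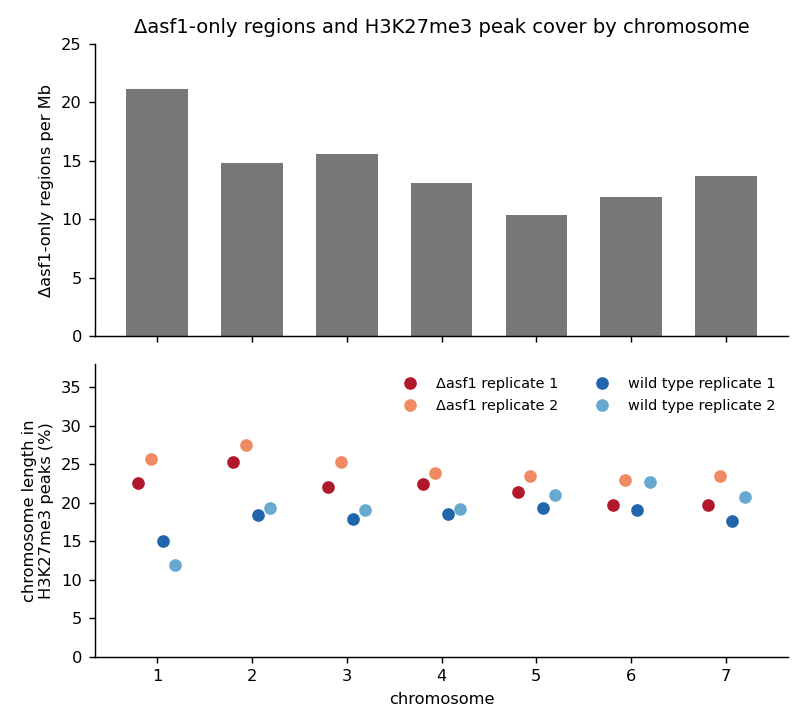
Δasf1-only regions per Mb on each of the 7 chromosomes (upper panel, bars) and percent of each chromosome in H3K27me3 peaks of each of the 4 lists (lower panel, points, Δasf1 in red tones and wild type in blue tones). Chromosome 1 has the tallest bar, 21.2 per Mb, and the lowest wild-type cover, 15.0% and 12.0%.

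Δasf1-only regions were scarce towards the chromosome ends. A single one lay within 100 kb of an end (0.166%), although these stretches make up 3.55% of the genome and held 2.20% of all regions and 7.74% of the wild-type-only regions. It was at chr2:77975-80720 in SMAC4_06931, with fold enrichments of 1.37 and 1.31 in the Δasf1 lists and a peak of wild type replicate 2 at 1046 bp. Within 500 kb of an end, 17.7% of the genome, there were 26 Δasf1-only regions (4.32%), against 47.7% of the wild-type-only and 17.7% of the shared regions.

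Density was higher away from the ends. It was 3.14 Δasf1-only regions per Mb in the outer 250 kb, 4.29 in the next 250 kb, 13.1 and 14.3 in the 2 steps up to 1000 kb and 17.1 to 20.3 in the 4 steps up to 2000 kb. Wild-type-only regions ran the other way, with 10.3 per Mb in the outer 250 kb and 2.57 per Mb from 1750 to 2000 kb. In the outer 250 kb, peaks covered 13.0% and 16.6% in the Δasf1 lists and 22.3% and 45.2% in the wild-type lists. From 1000 to 1250 kb the cover was 25.9% and 27.7% in the Δasf1 lists and 15.8% and 12.4% in the wild-type lists. The lists of the 2 strains did not overlap in either stretch, and the 2 wild-type lists differed most from each other at the ends. Over the whole genome they did not overlap either, with cover of 22.2% and 24.9% in the Δasf1 lists and 17.7% and 18.3% in the wild-type lists. The stretch from 1000 to 1250 kb thus had the direction of the whole genome, and the outer 250 kb had the reverse.

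**Figure D3:**
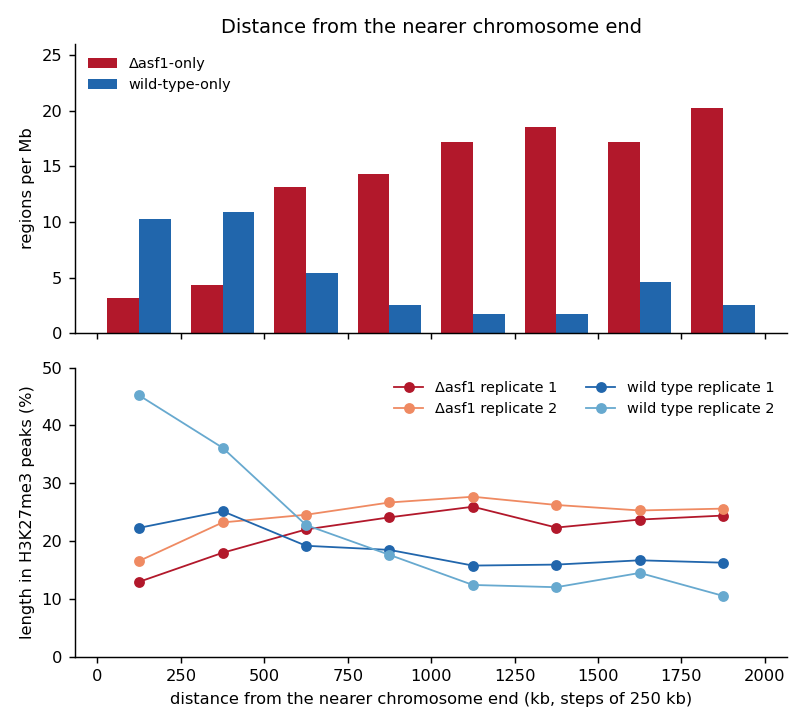
Regions per Mb (upper panel; red bars Δasf1-only, blue bars wild-type-only) and percent of length in H3K27me3 peaks of each list (lower panel) in steps of 250 kb from the nearer chromosome end. Δasf1-only regions are at 3.14 per Mb in the first step and 20.3 per Mb in the last, while wild-type replicate 2 covers 45.2% of the first step and 10.5% of the last.

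Within the chromosome arms, a minority of the regions were grouped. Another Δasf1-only region lay within 10 kb of 201 regions (33.4%) and within 100 kb of 578, and the median gap to the nearest was 18.0 kb. The share within 10 kb moved with the number of regions, from 14.7% at the common cutoff and 19.5% with the stricter overlap to between 46.4% and 74.1% when a library was left out of the rule. Of the wild-type-only regions, a class with fewer members, 21.9% had another of their kind within 10 kb. Joined at 10 kb, 401 Δasf1-only regions stood alone, 78 pairs formed, and 11 runs had 3 and 3 runs had 4 regions. Δasf1-only regions were direct neighbours of another one in 19.6% of cases, against 14.2% of all regions.

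The tightest run of 4, at chr3:2673753-2683906, spanned 10.2 kb over SMAC4_03052 to SMAC4_03055. Peaks covered 52.6% and 58.1% of it in the Δasf1 H3K27me3 lists and none of it in the wild-type lists. H3 peaks covered 37.2% and 37.3% of the same stretch in Δasf1, against 50.5% and 68.8% in the wild type, so H3 was called there in both strains. A run of 4 at chr3:2761324-2775318, over SMAC4_03077, SMAC4_03078, SMAC4_03080 and SMAC4_03081, had H3K27me3 cover of 39.4% and 33.7% in Δasf1, against 8.38% and 8.72% in the wild type, where each list had 1 peak between the regions. The third run of 4, at chr1:7471156-7489447 over SMAC4_00325 to SMAC4_00327, had 29.7% and 30.7% in Δasf1, against 5.59% and 5.75% in the wild type.

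The shortest runs of 3 were both on chromosome 1. One, at chr1:5426294-5434818 over SMAC4_01585 to SMAC4_01583, had H3K27me3 cover of 23.3% and 40.8% in Δasf1, against 0% and 5.58% in the wild type. The other, at chr1:6955895-6965095, touched no gene, with 37.7% and 37.0% in Δasf1, against none in the wild type. Its H3 cover was 12.9% and 0% in Δasf1, against 0% and 38.4% in the wild type.

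Δasf1-only regions lay mostly in gene bodies. Genes took up 79.0% of their length, against 51.3% for wild-type-only regions, 70.3% for regions in all 4 lists, 71.6% for all regions and 58.2% for the genome. In all, 321 (53.3%) lay wholly inside genes, compared with 29.7% of wild-type-only and 41.7% of all regions. This share followed the width. Of the 151 narrowest regions (277 to 838 bp) 80.1% were wholly inside genes, and of the 151 widest (2018 to 9506 bp) 22.5%. The genic share of length was 89.1% in the narrowest and 75.8% in the widest, both above that of the genome.

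The regions touched 632 genes, of which 631 were protein-coding and 1 was among the 445 tRNA genes (0.225%). The 1823 regions in all 4 lists touched 19 tRNA genes (4.27%) and all 8127 regions touched 41 (9.21%). These classes hold more regions, and the counts are too small to set the class apart. The protein-coding genes touched had a median length of 2463 bp, against 1761 bp for those touched by wild-type-only regions, 1934.5 bp for those touched by regions in all 4 lists and 1927 bp for all protein-coding genes. A longer gene is touched more easily by any region, and 63 of the 450 protein-coding genes of 5 kb or more were touched by a Δasf1-only region, compared with 631 of all 10309.

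Of the genes, 11 held 2 Δasf1-only regions each and none held 3. They ranged in length from 2994 bp (SMAC4_08838) to 8240 bp (SMAC4_00327). SMAC4_00326 and SMAC4_00327, which adjoin in the run on chromosome 1 described above, were both among them, as was SMAC4_03052 at the start of the tightest run. The others were SMAC4_00305, SMAC4_00362, SMAC4_00846, SMAC4_01163, SMAC4_02146, SMAC4_06603 and SMAC4_06693. The tables used here give no function for these locus tags.

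Ranked by the weaker of their 2 Δasf1 fold enrichments, the first 10 regions of 500 bp or wider had values of 1.44 to 1.59, and 9 of them touched a gene. This was near the share of the class, in which 47 of the 602 regions (7.81%) touched no gene. A region in SMAC4_02278 (chr4:3659136-3659723) had fold enrichments of 1.49 and 1.46, and the 2 peaks shared 505 bp of its 588 bp. In SMAC4_08108 (chr4:3394199-3395766) they were 1.52 and 1.45, with 1253 bp shared, and in SMAC4_00846 (chr3:3343407-3344662) 1.504 and 1.45, with 1053 bp shared. In other regions of high fold enrichment the replicates met over a short stretch only. The region in SMAC4_04444 (chr2:1432122-1434749) had 1.45 and 1.497, and its peaks shared 441 bp of 2628 bp. A region beside SMAC4_04323 (chr1:3219890-3221117), 12417 bp from the nearest wild-type peak, had 1.45 and 1.45 with 316 bp shared.

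The widest regions differed in how far peaks of the 2 Δasf1 lists extended each other. The widest, 9506 bp at chr2:1077024-1086529, was covered to 69.6% and 52.5% by peaks of the 2 Δasf1 lists, with fold enrichments of 1.42 and 1.22. The next, 6421 bp at chr1:1895806-1902226 over SMAC4_05410, SMAC4_05409 and SMAC4_05408, was covered to 50.1% and 98.7%, with 1.40 and 1.303. Here 3137 bp were in common, so the cover of replicate 1 lay mostly within that of replicate 2. A region of 5279 bp at chr5:2889011-2894289, over SMAC4_02371 and SMAC4_02372, stood out by cover of 98.2% and 100% and 5183 bp in common, with 1.42 and 1.31. The same held for no other of the 10 widest regions, whose shared length was at most 3228 bp.

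The H3 lists, which did not choose the regions, were used to ask whether H3 was called there in both strains. H3 peaks covered 47.7% and 23.2% of the length of the Δasf1-only regions in the 2 Δasf1 libraries, against 40.7% and 54.7% in the 2 wild-type libraries. Of the 602 regions, 75.7% and 39.7% had an H3 peak in the Δasf1 libraries and 72.4% and 76.9% in the wild-type libraries. Among all regions the shares were 68.1% and 46.7% in Δasf1, against 65.0% and 74.3% in the wild type. Δasf1 replicate 2 was thus the lowest on both measures, and Δasf1 replicate 1 lay between the wild-type libraries, so that the strains overlapped. Cover averaged 35.5% ± 17.3 in the Δasf1 libraries, against 47.7% ± 9.89 in those of the wild type (SD, n = 2 each), a difference of −12.2 percentage points (exact permutation test, two-sided p = 0.667). The difference was 7.03 points within replicate 1 and −31.5 points within replicate 2. Over all regions it was −10.5 points, with 6.41 points within replicate 1 and −27.5 points within replicate 2. Its direction and its split by replicate were thus not particular to the Δasf1-only regions.

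For the share of regions with an H3 peak, the difference was −16.9 points (exact permutation test, two-sided p = 0.667), with 3.32 points within replicate 1 and −37.2 points within replicate 2. Over all regions it was −12.2 points, with 3.10 points within replicate 1 and −27.6 points within replicate 2. With 2 libraries against 2, p cannot go below 0.333. Δasf1 replicate 2 had the fewest H3 peaks of all lists (4401) and covered 14.7% of the genome. Without it, the differences for the Δasf1-only regions were 0.040 and 1.08 points, so this library alone set their direction. A strain difference in H3 at these regions was therefore not detectable in these lists.

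**Figure D4:**
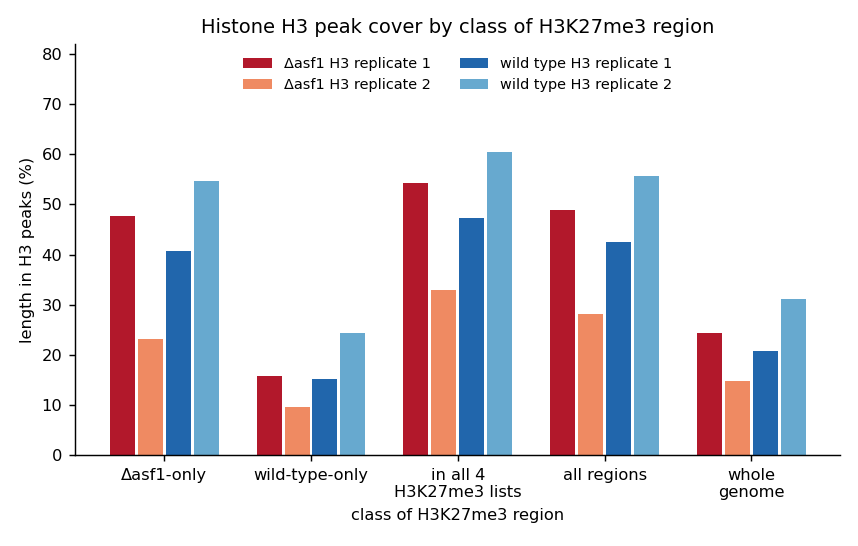
Percent of length in H3 peaks of each of the 4 H3 libraries (bars; Δasf1 in red tones, wild type in blue tones) for Δasf1-only, wild-type-only, shared and all H3K27me3 regions and for the whole genome. Δasf1-only regions have 47.7%, 23.2%, 40.7% and 54.7% and wild-type-only regions 15.8%, 9.66%, 15.2% and 24.3%, in the order of the legend.

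Almost all Δasf1-only regions had an H3 peak in some library. An H3 peak was present in at least 1 list in 577 (95.8%, against 87.7% of all regions) and in at least 1 wild-type H3 list in 541 (89.9%, against 81.6%). It was present in both wild-type H3 lists in 358 (59.5%, against 57.7% of all regions) and in all 4 lists in 149 (24.8%, against 33.9%). The most frequent pattern, in 164 regions (27.2%, against 17.6% of all regions), was a peak in every H3 list but that of Δasf1 replicate 2. The share with H3 peaks in both wild-type lists was thus near that of all regions, and the share with H3 peaks in all 4 lists was below it.

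H3 peaks that followed the strain in the same way as H3K27me3 were few. An H3 peak in both Δasf1 libraries and neither wild-type library was found in 7 Δasf1-only regions (1.16%), against 0.997% of all 8127 regions. The reverse, an H3 peak in both wild-type libraries and neither Δasf1 library, was found in 29 (4.82%), against 4.09% of all regions. Both shares were near those of all regions. Among the 7 was the region in SMAC4_06840 (chr1:2288894-2289373), with H3 cover of 66.3% and 82.5% in Δasf1, against none in the wild type, and that in SMAC4_07040 (chr2:1817172-1818193), with 86.1% and 89.8% in Δasf1, against none in the wild type. The others named by the same rule were in SMAC4_06442 with SMAC4_13616 (chr4:1364250-1365632), SMAC4_04437 (chr2:1402004-1402546) and SMAC4_05587 (chr2:828741-830196).

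No H3 peak in any library was found at 25 Δasf1-only regions, which were narrow, with a median width of 747 bp. All regions without an H3 peak were alike in this, with a median of 741 bp. Some of the highest fold enrichments of H3K27me3 were here. A region of 336 bp beside SMAC4_06397 (chr6:1865956-1866291) had 1.56 and 1.64, one of 316 bp in SMAC4_06354 (chr7:2539129-2539444) had 1.70 and 1.53, and one in SMAC4_02660 (chr2:3717849-3719066) had 1.44 and 1.44. Regions without any H3 peak were 4.15% of the Δasf1-only regions, against 21.3% of the wild-type-only regions and 12.3% of all regions.

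H3 cover was higher in Δasf1-only than in wild-type-only regions in every H3 library. In wild-type-only regions H3 peaks covered 15.8% and 9.66% of the length in Δasf1, against 15.2% and 24.3% in the wild type. Cover of Δasf1-only regions was higher by 25.4 ± 8.32 percentage points (SD over 4 libraries, 13.6 to 32.0, higher in 4 of 4), with an exact sign-flip permutation p of 0.125 (two-sided), the smallest that 4 libraries allow. The genome as a whole had 24.3% and 14.7% in Δasf1, against 20.8% and 31.2% in the wild type, so wild-type-only regions lay below and Δasf1-only regions above it in each library. Against regions shared by all 4 H3K27me3 lists, the difference was −9.74 to −5.72 points (lower in 4 of 4 libraries), and against all regions it was −2.22 points on average (lower in 4 of 4). By other measures the difference from all regions had the other sign. The share of regions with an H3 peak was higher by 2.66 points and that with an H3 peak at the centre by 2.17 points, each in 3 of 4 libraries (exact sign-flip permutation p = 0.375 for both). With regions within 100 kb of chromosome ends left out, the difference from the wild-type-only regions was 20.9 points. That step took out 12 wild-type-only regions and 1 Δasf1-only region. Position farther in and the genic share were not matched between the classes. The difference from the wild-type-only regions depended on the lists that defined the classes. Without Δasf1 H3K27me3 replicate 1 in their definition it was 2.76 points, without wild type H3K27me3 replicate 1 it was 42.7 points and without wild type H3K27me3 replicate 2 it was 16.8 points.

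On chromosome 2, the window from 0.7 to 1.3 Mb, around the DNA duplicated in Δasf1, was described apart. It was taken from earlier results of these data, so its counts are no independent evidence. It held 16 Δasf1-only regions, 26.7 per Mb, against 15.1 per Mb in the rest of the genome, and no wild-type-only region. They were wide, with a median of 2927.5 bp (351 to 9506 bp), against 1302.5 bp (277 to 6421 bp) elsewhere. Their median fold enrichments, 1.34 and 1.26 in the 2 Δasf1 lists, were below the 1.41 and 1.31 of the regions elsewhere, whereas their median −log10 q, 4.42 and 2.31, were above the 3.36 and 1.79 elsewhere. The medians of the window thus combined lower enrichment with stronger calls than those elsewhere, which says nothing of single regions within it.

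H3 in the window differed in pattern from the other Δasf1-only regions. H3 peaks covered 55.6% and 48.6% of the 16 regions in Δasf1, against 24.5% and 42.1% in the wild type, with no overlap between the strains. For the 586 regions elsewhere the cover was 47.3% and 21.8% in Δasf1, against 41.6% and 55.4% in the wild type. Δasf1 replicate 2, the low library elsewhere, was thus above both wild-type libraries here. All 113 H3K27me3 regions of the window showed the same, with 66.1% and 52.2% in Δasf1, against 34.4% and 47.8% in the wild type, so the pattern was not particular to the Δasf1-only regions. The duplication does not fill the window, as a middle stretch is not duplicated. Of the Δasf1-only regions, 15 held a gene listed as duplicated, with H3 cover of 55.5% and 50.4% in Δasf1, against 26.9% and 44.5% in the wild type. The remaining one, in SMAC4_07829 (chr2:1044516-1049033), had 57.5% and 29.3% in Δasf1, against 0% and 17.6% in the wild type. Where DNA is duplicated, copy number and strain change together and cannot be told apart from these lists.

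**Figure D5:**
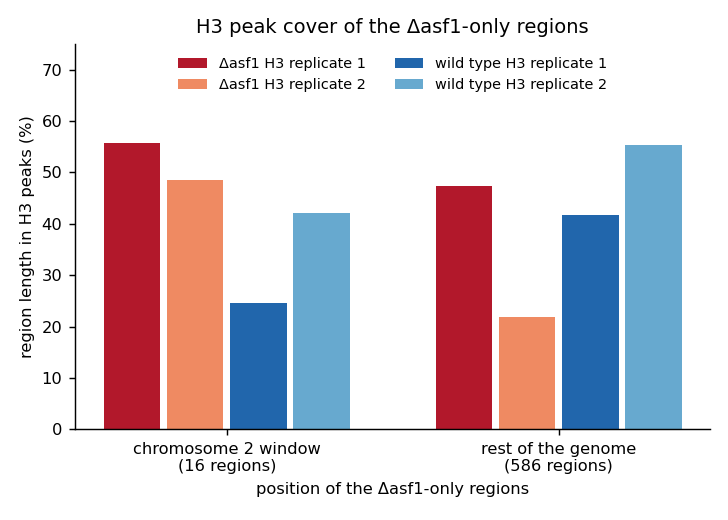
Percent of the length of Δasf1-only regions in H3 peaks of each of the 4 H3 libraries (bars), for the 16 regions at 0.7 to 1.3 Mb of chromosome 2 and for the 586 others. In the window both Δasf1 bars (55.6% and 48.6%) stand above both wild-type bars (24.5% and 42.1%), and elsewhere the strains overlap.

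The study's table of duplicated genes gives products for many of them. One region, at chr2:1234722-1237267, lay wholly in SMAC4_04395, listed as chromatin assembly factor 1 subunit A. That is part of the chaperone complex CAF-1, which receives H3 and H4 from ASF1. According to the paper, however, the duplicated stretch appears to encode no known partner or member of the ASF1 network. Fold enrichments of the region in SMAC4_04395 were 1.37 and 1.21 in the Δasf1 lists. Its −log10 q was 5.41 in replicate 1 and 1.56 in replicate 2, and the latter was under the common cutoff tried above. H3 peaks covered 96.3% and 30.7% of it in Δasf1, against 45.6% and 97.6% in the wild type. The region of 834 bp in SMAC4_05560, listed as a subunit of Mediator, which links transcription factors to RNA polymerase II, had 1.36 and 1.26. That in SMAC4_05567 and SMAC4_05568 (chr2:774937-778523) joined a gene listed as the transcriptional coactivator Hfi1 with one for a gamma tubulin complex component and had 1.38 and 1.23. The widest of all regions covered parts of SMAC4_07823 (syntaxin family), SMAC4_07822 (small nucleolar ribonucleoprotein) and SMAC4_07821 (ATP-dependent helicase). The region over SMAC4_04374 (60S ribosomal protein L20) and SMAC4_04375 (F-box domain) had the strongest call of the window in replicate 1, with a −log10 q of 8.43, fold enrichments of 1.49 and 1.29, and H3 cover of 100% and 70.0% in Δasf1, against 11.5% and 46.6% in the wild type. The gene of an autophagy-related protein 2 (SMAC4_05551) held the narrowest region of the window, 351 bp, with fold enrichments of 1.29 and 1.19. In replicate 2, the −log10 q of this region was 1.45. It was 1.85 for the region with the Hfi1 gene and 1.76 for the widest region, all under the common cutoff. The regions in SMAC4_05560 (2.36) and over SMAC4_04374 and SMAC4_04375 (3.16) were above it.

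A core of 102 regions (16.9%) stayed in the class under 5 other ways to define it, namely a common cutoff, equal numbers of top peaks, a stricter overlap, peaks joined within 1 kb and at least 1 kb from wild-type peaks. They were selected after the data were seen and are described only. Of them, 34 (33.3%) were on chromosome 1, none lay within 100 kb of an end and 6 were in the chromosome 2 window. Genes took up 88.3% of their length, and their median width was 992 bp, against 1317.5 bp for all 602. Width and genic share went together in the class, with 89.1% in the narrowest 151 regions and 79.9% in the next 150. H3 peaks covered 62.6% and 35.3% of the core in Δasf1, against 53.8% and 69.7% in the wild type, in the same order of libraries as for all 602. By fold enrichment in the weaker list it was led by a region of 344 bp in SMAC4_05149 (chr2:5846773-5847116), with 1.82 and 1.58 in the Δasf1 lists and −log10 q of 12.1 and 6.47. H3 cover of that region was 84.9% and 100% in Δasf1, against 0% and 99.7% in the wild type. Of the window regions named above with their products, those in SMAC4_05560 and over SMAC4_04374 and SMAC4_04375 were in the core. The others, among them the region in SMAC4_04395, were not.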

How the data were processed

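The authors deposited 1 broad peak list per precipitated library, which hold for each peak its position, a score, a fold enrichment (a ratio), and a p-value and q-value as −log10. The deposited score was the −log10 q multiplied by 10 without its decimals, except in 1 peak of some lists. The submitters' processing notes name fastp, Bowtie2 and MACS2, and the settings and the use of inputs are not given in the sources used here. The members and lists were chosen with earlier results of these data known.

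Overlapping or touching H3K27me3 peaks of the 4 lists were merged into regions, and overlap meant at least 1 bp. Positions are counted from 1 in the build named Sm_v04_wtN in the lists. Genes came from a RefSeq table of an assembly of another name (10804 genes). Slid along these genes, peaks of 56 of 56 pairs of chromosome and list fitted best within 100 bp of their own place. Gene coordinates are not printed. No genome sequence was used here. Products came from the study's table of duplicated genes by older locus tags.

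H3 cover per library was compared between strains by exact two-sided permutation (6 assignments), and between classes by exact sign flips over 4 libraries. Merging was tested on simulated peaks. Replicate numbers were not taken to pair libraries. Alternatives were a common −log10 q of 2.0496, equal numbers of top peaks (4764 for H3K27me3 lists), a stricter overlap (at least 50% of a region in each Δasf1 list and under 10% in each wild-type list), joining within 1 kb, a distance of 1 kb, other distances, leaving out each library or the chromosome 2 window, and a replicate block. Those on chromosome 1, chromosome ends and the difference between classes were added after seeing the data. The regions named were the first 10 of 500 bp or wider by the weaker Δasf1 fold enrichment, the 10 widest, the 5 largest runs, 5 each with H3 peaks in Δasf1 only and with none, those at the limits of the rule, those in the window, and genes with 2 regions. Regions named beyond these were picked after their values were seen. Python 3.11.15, NumPy 2.4.6, pandas 2.3.3, SciPy 1.17.1 and matplotlib 3.10.9 were used.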

Additional observations from a re-analysis of the deposited data

How the results depend on the processing

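The number of Δasf1-only regions was 299 at a common cutoff, 331 with equal numbers of top peaks and 343 with the stricter overlap, and with 1 library left out of the rule it was 1046 (wild type replicate 2), 1376 (Δasf1 replicate 2), 1462 (Δasf1 replicate 1) or 1864 (wild type replicate 1). The share of length in genes was 83.4% with the stricter overlap, 92.5% with 1 kb added to either side of genes, and 69.8% to 82.8% with 1 library left out. The share with another region within 10 kb was 14.7% at the common cutoff, 23.9% with equal numbers and 19.5% with the stricter overlap. It was 20.9% within 5 kb and 53.3% within 20 kb, and 46.4% to 74.1% with 1 library left out. The share in the chromosome 2 window was 5.02% at the common cutoff. The share near ends was 0% with the stricter overlap and at most 0.727% otherwise. The share on chromosome 1 was 29.1% to 34.7% under all 9 alternatives tried.

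The strain difference in H3 cover ran from −24.5 points without Δasf1 H3 replicate 1 to 0.040 points without Δasf1 H3 replicate 2, and that in regions with an H3 peak from −35.0 to 1.08 points. Replicate numbers were not taken to pair libraries, although the cutoff seems to have differed by replicate number in both strains. A replicate block left the differences at −12.2 and −16.9 points, with an exact permutation p of 1 each (the smallest possible is 0.5). The difference in H3 cover from wild-type-only regions was 2.76 to 42.7 points with 1 library left out, and 18.6 to 27.96 points under the settings with all libraries. With 2 libraries per group and no read counts, depth and small differences could not be assessed.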
